A study of Homo sapiens with 18 samples.

Results

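The interferon-stimulated genes described here are 9 protein-coding genes named in a list: IFI6, ISG15, ISG20, IFIT1, IFIT2, IFIT3, IRF1, MX1 and OAS1. They are 9 of the 61487 genes counted in every library, and all 9 were found by symbol. The list names genes and sets no threshold on their values. Their counts were followed in 18 libraries of NCI-H1975, an established human lung adenocarcinoma cell line. The sgDAMP cells carry a CRISPR knockout of DAMP, the peptide that the study assigns to the long noncoding RNA DSP-AS1. The labels give the Scramble cells by that name alone, and the design text also describes a search for long noncoding RNAs that may be translated, without naming a cell set. The sgControl cells are the CRISPR control of the knockout. No label names an interferon, a virus or a nucleic acid as a treatment. Each of these 3 cell sets has 3 libraries of poly(A)-selected mRNA and 3 libraries of ribosome footprints, the RNA stretches that ribosomes shield from nuclease. Cells for footprints had been exposed to 100 µg/ml cycloheximide, which halts ribosomes on the mRNA. The labels do not say whether the libraries of a set are separate cultures or clones, nor whether a footprint library and an mRNA library, which they call its input, share a culture. The p-values therefore measure only the spread between these libraries.

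Interferons are secreted cytokines that cells make after sensing foreign or misplaced nucleic acid. They bind receptors that activate JAK kinases, and transcription factors then bind the interferon-stimulated response element (ISRE) upstream of antiviral genes. Airway epithelial cells both make and answer type I interferon, such as IFNB1, and type III interferon, the IFNL proteins. The proteins of the IFIT genes bind viral RNA, ISG15 encodes a ubiquitin-like modifier, and OAS1 encodes a synthase whose product activates RNase L. MX1 encodes a dynamin-like antiviral GTPase and ISG20 an exonuclease. IFI6 encodes a small membrane protein, and IRF1 a transcription factor that itself drives antiviral genes.

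The stretches below are shown because they hold the element that ties several of these genes to interferon. They come from the RefSeq promoter table of GRCh38.p14, run 5′ to 3′ in the direction of the gene and lie upstream of a transcript start that the table lists. Capitals mark each match to the core of the element (GAAA, 2 bases of any kind, GAAA) on either strand, and adjoining capitals in ISG15 are overlapping matches.
IFI6: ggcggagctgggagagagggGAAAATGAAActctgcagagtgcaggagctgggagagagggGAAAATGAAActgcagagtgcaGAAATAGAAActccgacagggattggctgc
ISG15: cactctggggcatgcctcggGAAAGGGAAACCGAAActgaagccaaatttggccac
ISG20: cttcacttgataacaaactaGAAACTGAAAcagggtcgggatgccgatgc
IFIT1: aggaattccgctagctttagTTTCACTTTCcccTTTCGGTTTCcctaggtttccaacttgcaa
IFIT3: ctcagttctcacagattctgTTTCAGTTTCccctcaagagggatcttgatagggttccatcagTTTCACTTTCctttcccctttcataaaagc
They lie at chr1:27672256-27672368 on the minus strand for IFI6, and on the plus strand at chr1:1013364-1013419 for ISG15, chr15:88638927-88638976 for ISG20, chr10:89392487-89392549 for IFIT1 and chr10:89332415-89332507 for one of the IFIT3 starts. The ISG20 and IFIT3 stretches lie within the gene spans given next, upstream of a start inside the span. The table holds 11 promoters of 8 of the members, each 300 bases long. A match stood in 8 of these promoters and in 6 of the 8 members, against 3.57% of all 35116 promoters in the table. MX1 was the sixth member, and the IRF1 and OAS1 promoters held no such match in this window. The gamma-activated site, searched on both strands as TTCNNNGAA, matched a promoter of IRF1, MX1 and OAS1 and 7.66% of all promoters. These matches describe the letters and say nothing of binding in these cells.

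The members lie on 6 chromosomes of GRCh38. IFI6 (ENSG00000126709) spans chr1:27666064-27672192 and ISG15 (ENSG00000187608) chr1:1013497-1014540. The IFIT genes stand side by side on chromosome 10, with IFIT2 (ENSG00000119922) at chr10:89302046-89309271, IFIT3 (ENSG00000119917) at chr10:89327997-89340968 and IFIT1 (ENSG00000185745) at chr10:89392623-89406487. IRF1 (ENSG00000125347) spans chr5:132481609-132490773, OAS1 (ENSG00000089127) chr12:112906962-112933219 and ISG20 (ENSG00000172183) chr15:88635632-88656483. MX1 (ENSG00000157601) spans chr21:41420558-41459214. Counts are per gene and do not tell exons, introns or untranslated regions apart.

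Library totals set the precision of what follows. Gene counts ran from 17098397 to 17464782 in the mRNA libraries of sgDAMP and sgControl and from 10859527 to 12424884 in Scramble mRNA. Footprint libraries held 6207783 to 7840852 gene counts in sgDAMP and sgControl and 1035159 to 1302852 in Scramble. Protein-coding genes took 76.3% to 76.6% of the footprints in sgDAMP, 6.37% to 20.2% in Scramble and 78.9% to 79.3% in sgControl. Footprint levels are therefore given as coding CPM, counts scaled to the protein-coding footprints of the library. The share of mRNA reads in no annotated feature was 1.1% to 1.32% in sgDAMP and 1.15% to 1.43% in sgControl. In Scramble it was 42.5% to 43.2%. Whether the libraries, their counting or the cells make this difference was not tested. The deposited files of the knockout set carry the abbreviation sgTIAMP where the labels say sgDAMP, and the labels were followed. DSP-AS1 had 2 footprints in that set, against 567 in sgControl. The epithelial markers KRT7, KRT8 and KRT18 were high in the mRNA of every set, while EPCAM and KRT19 had at most 15 and 18 counts in any mRNA library. The leukocyte genes PTPRC and CD3E were at 0 in all 18 libraries. CD14 and ITGAM held the most mRNA counts of the leukocyte markers. CD14 had 203 over the sgDAMP libraries, 26 over Scramble and 232 over sgControl, and ITGAM 108, 41 and 108. Summed over their lists, epithelial markers held 13777 to 19583 CPM of mRNA in sgDAMP, 7216 to 8845 in Scramble and 18889 to 24907 in sgControl. No leukocyte, fibroblast or endothelial list exceeded 11.5 CPM in any mRNA library.

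The mRNA of the 9 members did not change detectably in the knockout. Across all 14032 genes tested, 0 passed an adjusted p under 0.05 in edgeR's quasi-likelihood test, which is 0% of them, and 0 of 9 members did. At an unadjusted p under 0.05 there were 741 genes, DESeq2 called 21 and limma-voom called 0. The members' median log2 change was -0.17, against 0.03 over all genes tested. In a bulk sample, fewer cells with a transcript and less of it per cell cannot be told apart.

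IRF1, the transcription factor of the group, had the lowest p among the members. Its mRNA level was 51.1, 30 and 33.4 CPM (counts scaled to the gene counts of the library) in the sgDAMP libraries, against 73.3, 62.3 and 50.8 CPM in the sgControl libraries. The highest sgDAMP library and the lowest sgControl library nearly coincide. After TMM scaling (trimmed mean of M values) the same libraries stood at 44.8, 28.8 and 34.4 in sgDAMP, against 80.9, 66.5 and 49.8 in sgControl, and no longer overlapped. IRF1 was the only member without overlap on that scale, which 11.4% of all tested genes also lacked. Its log2 change was -0.87 (SE 0.29, unadjusted p = 0.00966, edgeR adjusted p = 0.862), so it did not pass.

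The ubiquitin-like modifier gene ISG15 had 1363, 1999 and 1830.1 CPM of mRNA in sgDAMP, against 1514, 1823 and 1714 CPM in sgControl. In CPM the sgDAMP libraries lie on both sides of the sgControl libraries. After TMM scaling they stood at 1193, 1923 and 1881, against 1670, 1945 and 1682 in sgControl, and none lay above all of sgControl. The log2 change was -0.08 (SE 0.29). The membrane protein gene IFI6 had 141, 185 and 180.4 CPM in sgDAMP, against 189, 192 and 169 CPM in sgControl, with a log2 change of -0.25 (SE 0.27). Its lowest library was the first of sgDAMP, as for ISG15. The exonuclease gene ISG20 averaged 163 ± 30.3 CPM in sgDAMP and 166 ± 10.4 CPM in sgControl (SD, n = 3 each). OAS1 averaged 71.2 ± 7.96 CPM in sgDAMP and 77.8 ± 6.02 CPM in sgControl, and the antiviral GTPase gene MX1 22.9 ± 3.83 CPM in sgDAMP and 23.9 ± 3.52 CPM in sgControl (SD, n = 3 each). Each of these differences is smaller than the larger SD of its pair.

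IFIT1 and IFIT2, whose proteins bind viral RNA, had the highest coefficients of variation of the members in sgDAMP and in sgControl. IFIT1 had 119, 386 and 197 CPM of mRNA in sgDAMP, against 86.9, 143 and 322 CPM in sgControl. Each set spans more than the distance between the sets, and the log2 change was 0.27 (SE 0.46). IFIT2 had 134, 163 and 75.5 CPM in sgDAMP, against 55.3, 84.4 and 178 CPM in sgControl (log2 change 0.11, SE 0.38). IFIT3 had 74.0, 82.0 and 41.5 CPM in sgDAMP, against 38.9, 50.4 and 69.8 CPM in sgControl (log2 change 0.17, SE 0.30). All 3 differences fall within the spread of their libraries, and each changed sign when the second sgDAMP library was left out, to -0.29 for IFIT1, -0.16 for IFIT2 and -0.03 for IFIT3.

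**Figure D1:**
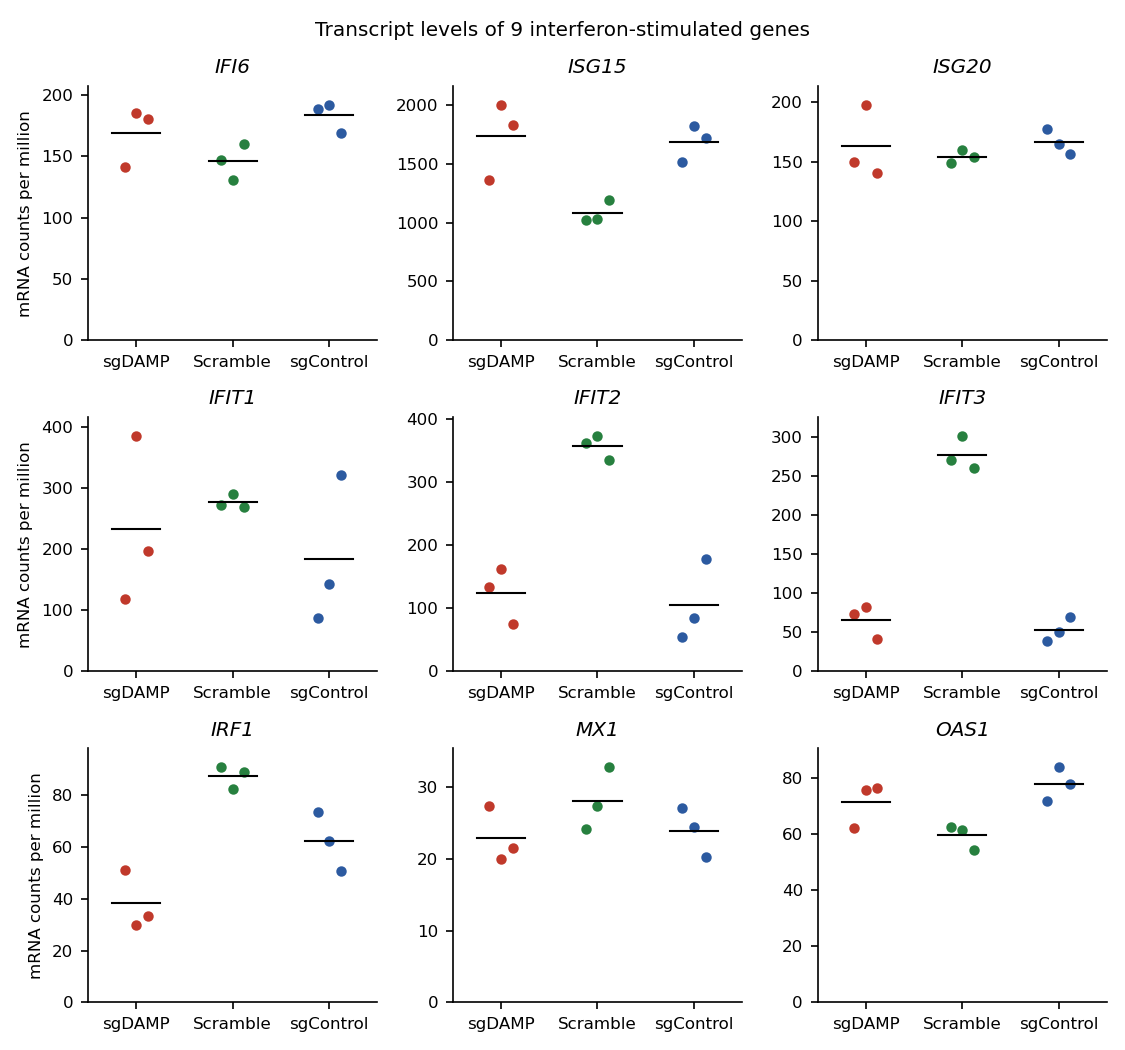
mRNA level of each gene in CPM (y axis, linear, from 0), by cell set (x axis). Each point is 1 library and each line the mean of 3. IFIT1 spans 119 to 386 in sgDAMP and 86.9 to 322 in sgControl, while the 3 Scramble libraries sit between 269 and 291.

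The spread of IFIT1 can be set beside genes of like level. Its coefficient of variation after TMM scaling was 59.7% in sgDAMP, 3.27% in Scramble and 60.8% in sgControl. Among genes within 0.5 log2 units of its level, that placed it at percentile 99.3 in sgDAMP, 17.1 in Scramble and 99.7 in sgControl. The interferon beta gene IFNB1 varied by 62.4% in sgDAMP, 10.3% in Scramble and 52.1% in sgControl. Its mRNA stood at 52.0, 155 and 65.5 CPM in sgDAMP, 8.24, 7.08 and 8.38 CPM in Scramble, and 46.8, 82.2 and 154 CPM in sgControl. Within sgDAMP and within sgControl the libraries fall in the same order for IFNB1 and IFIT1, highest in sgDAMP library 2 and sgControl library 3. LIPA, whose span overlaps the spans of IFIT1, IFIT2 and IFIT3, had 41.2, 75.4 and 40.0 CPM in sgDAMP, 79.8, 80.5 and 76.6 CPM in Scramble, and 24.4, 42.4 and 82.1 CPM in sgControl. LIPA was highest in the same sgDAMP and sgControl libraries as IFIT1. No source used here states whether the counting used strand, so reads of LIPA within the IFIT counts cannot be set apart. Ambiguous reads, which fit several genes and enter no gene count, made up 13.7% to 14.7% of mRNA reads in sgDAMP. They made up 3.13% to 3.21% in Scramble and 13.7% to 14.3% in sgControl. Whether IFIT reads were lost among them was not tested.

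**Figure D2:**
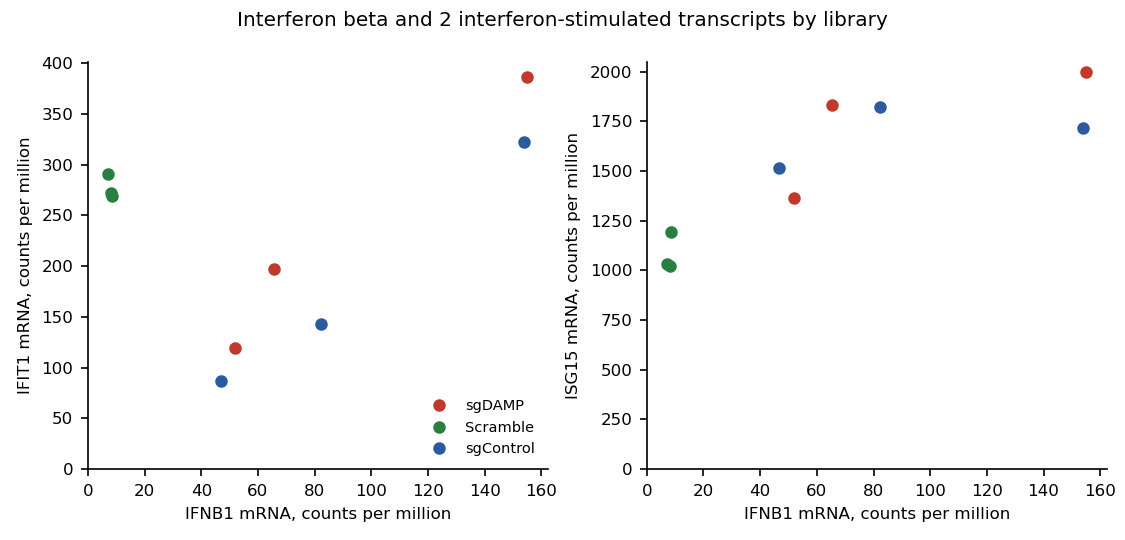
IFNB1 mRNA (x axis) against IFIT1 mRNA (left, y axis) and ISG15 mRNA (right, y axis), all in CPM on linear axes from 0, with 1 point per library. IFIT1 is highest where IFNB1 is highest within sgDAMP (386 at 155) and within sgControl (322 at 154), while the Scramble libraries hold 269 to 291 CPM of IFIT1 at 7.08 to 8.38 CPM of IFNB1.

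The members did not move as one block across the 6 mRNA libraries of sgDAMP and sgControl. Pearson's r was taken between log2 levels of 2 members after TMM scaling. It ran from -0.90 for IFIT1 with MX1 to 0.94 for IFI6 with OAS1 and for IFIT2 with IFIT3 (n = 6 libraries). These points share library and depth, so the values only describe these libraries. The mean standardised log2 level of the members, also after TMM scaling, was lowest in sgDAMP library 1, at -0.80, and highest in sgControl library 2, at 0.42. The 5 protein-coding genes most like this mean, of 7107 compared over the 6 libraries, were DDX19B (r = 0.99), PKIG (0.98), TPM2 (0.98), CREB3 (0.96) and PPIA (0.95).

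In footprints, IRF1 was the only member past 2-fold in the knockout. The 3 footprint libraries of sgDAMP agreed within sampling noise over nearly all genes (chi-square over its degrees of freedom averaged 0.91), as did those of sgControl (0.909). Each group was therefore summed to 1 sample, its ratios carry 95% Clopper-Pearson intervals that cover counting error only, and no test was made. The same chi-square measure was 64.7 in sgDAMP mRNA, 38.4 in sgControl mRNA, 4.11 in Scramble mRNA and 16.0 in Scramble footprints. Those libraries differ beyond sampling noise and were not summed for the tests. IRF1 had 20, 19 and 22 footprints in the sgDAMP libraries, against 11, 11 and 6 in the sgControl libraries. Every sgDAMP library lies above every sgControl library, but libraries that agree within sampling noise do not count as replicates. The share of all genes that separate so in footprints was not computed. The scaled ratio of the sums, 61 against 28, was 2.1 (1.32 to 3.41). Past 2-fold in either direction lay 18.2% of the 16131 genes kept, 10.2% higher and 8.02% lower, so 1 of 9 members is near the background. Without sgControl footprint library 3, 0 members lay past 2-fold.

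The other members differed less. IFIT3 had 71, 101 and 90 footprints in sgDAMP, against 104, 127 and 115 in sgControl, and the scaled ratio was 0.73 (0.62 to 0.86). OAS1, the member with most footprints in both sets, had 508, 462 and 469 in sgDAMP, against 369, 444 and 434 in sgControl, with a ratio of 1.11 (1.03 to 1.2). In coding CPM the sgDAMP libraries of OAS1, at 107, 88 and 89.7, all lie above those of sgControl, at 68, 71.6 and 70.6. Those of IFIT3, at 15, 19.2 and 17.2 in sgDAMP, overlap with 19.2, 20.5 and 18.7 in sgControl. The separation of OAS1 has the same limits as that of IRF1. With protein-coding totals in place of TMM, the median log2 ratio of all genes also shifted by 0.276 towards sgDAMP. The intervals of the other 6 members include 1. MX1 had a ratio of 1.29 (0.859 to 1.94) from 60 against 45 footprints, and ISG15 1.13 (0.915 to 1.39) from 202 against 173. IFI6 had 21 footprints in sgDAMP and 18 in sgControl, and its ratio of 1.13 has an interval of 0.571 to 2.24, which includes a ratio of 2. ISG20, IFIT1 and IFIT2 had ratios of 0.949 (0.811 to 1.11), 0.923 (0.723 to 1.18) and 0.807 (0.605 to 1.07). The members' median ratio was 1.11, against 1.01 over all genes kept.

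**Figure D3:**
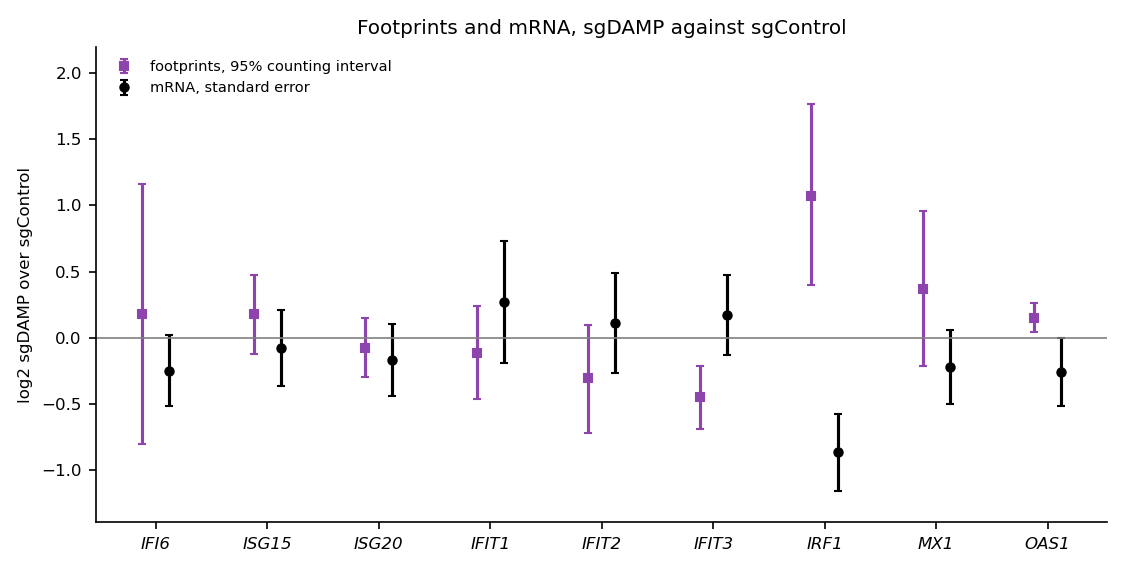
Log2 ratio of sgDAMP over sgControl (y axis) for footprints (squares, 95% counting interval) and for mRNA (circles, standard error over libraries) of each gene (x axis). IRF1 stands above 0 in footprints (log2 1.07) and below it in mRNA (-0.87), and the footprint intervals of IFIT3 and OAS1 also leave out 0.

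Footprints relative to mRNA, a measure of ribosome occupancy per transcript, were tested as the interaction of assay and cell set. The lone summed footprint sample of each set was assumed to vary like the mRNA libraries, here and wherever it entered a test. This test called 50 of 19357 genes, which is 0.258% (0.031% higher and 0.227% lower), and 0 of 9 members. IRF1 had the largest value of the members, a log2 change of 1.96 (SE 0.70, edgeR adjusted p = 0.706). It passed where each footprint library counted as a sample of its own (1.95, edgeR adjusted p = 0.033), a setting that takes near-identical libraries for replicates. The other 8 members had an adjusted p of 1 in edgeR's test, with log2 changes from -0.61 for IFIT3 to 0.60 for MX1. DSP-AS1 itself had a log2 change of -8 (SE 0.85, edgeR adjusted p = 0.00017). This comparison and the mRNA comparison share their mRNA libraries.

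Within sgDAMP and within sgControl cells, most members had far fewer footprints than their mRNA would give on the TMM scale. In sgDAMP cells 8 of 9 members were lower in footprints than in mRNA and 0 were higher, where 67.9% of all 19357 genes passed, 29.5% as lower and 38.3% as higher. In sgControl cells the same 8 members were lower and 0 higher, where 69.7% of all genes passed, 30.4% as lower and 39.3% as higher. The members' median log2 value was -3.18 in sgDAMP and -3.84 in sgControl, against 0.20 and 0.19 over all genes. Over the 13240 protein-coding genes tested the median was -0.3 in sgDAMP and -0.35 in sgControl. Of these, 4584 were lower in sgDAMP and 4784 in sgControl. OAS1 was the member that did not differ, at 0.46 (SE 0.39, edgeR adjusted p = 0.305) in sgDAMP and 0.07 (SE 0.40, edgeR adjusted p = 0.882) in sgControl. The 2 cell sets were fitted in 1 model, and their values are set side by side.

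IFI6 and ISG15 lay lowest. IFI6 had 5, 5 and 11 footprints beside 2429, 3231 and 3117 mRNA counts in sgDAMP. In sgControl it had 7, 5 and 6 footprints beside 3279, 3286 and 2951 mRNA counts. No footprint library of IFI6 exceeded 11 counts, and the log2 value was -6.88 (SE 0.64) in sgDAMP and -7.28 (SE 0.65) in sgControl. ISG15 had 72, 61 and 69 footprints beside 23405, 34893 and 31629 mRNA counts in sgDAMP. In sgControl it had 42, 68 and 63 footprints beside 26287, 31168 and 29926 mRNA counts. Scaled by TMM, the summed footprints of ISG15 were 125 times lower than its mRNA in sgDAMP and 148 times lower in sgControl.

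The IFIT genes, IRF1, ISG20 and MX1 followed. In sgDAMP the log2 footprints over mRNA were -4.70 for IFIT1, -4.29 for IFIT2, -3.18 for IRF1, -2.91 for ISG20, -2.47 for MX1 and -1.87 for IFIT3. In sgControl they were -4.29 for IFIT1, -3.84 for IFIT2, -5.09 for IRF1, -2.98 for ISG20, -3.03 for MX1 and -1.21 for IFIT3. All of these passed, the least firmly IFIT3 in sgControl (SE 0.50, edgeR adjusted p = 0.0405), which missed the threshold in 4 of 20 alternatives. Ratios between genes are not compared per length here, and the order describes each gene's footprints against its own mRNA.

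The interferon genes themselves showed the same contrast. All 15 interferon genes listed had 0 footprints in the sgDAMP libraries and in the sgControl libraries. IFNL1, a type III interferon, had 8605, 6100 and 4408 mRNA counts in sgDAMP, against 8314, 7772 and 7472 in sgControl. Taking a floor of 3 footprints over each group, its footprints were at least 1792 times lower than its mRNA in sgDAMP and at least 2307 times lower in sgControl, on the TMM scale. For IFNB1 the floor gave at least 443 times lower in sgDAMP and at least 481 times lower in sgControl. All 4 interferon genes tested, IFNB1, IFNL1, IFNL2 and IFNL3, passed as lower in both sets (edgeR adjusted p of 3.95e-06 or less in sgDAMP and 3.08e-06 or less in sgControl).

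Genes of the pathway around the members were less uniform. Their counts are read against the 38.3% of all genes higher and 29.5% lower in sgDAMP, and 39.3% and 30.4% in sgControl. Among the 13240 protein-coding genes tested, lower calls outnumbered higher ones, at 4584 against 3989 in sgDAMP and 4784 against 4154 in sgControl. Of 8 tested negative regulators, 6 were lower in footprints and 1 higher in sgDAMP as in sgControl, among them SOCS3, an inhibitor of JAK signalling, at -2.99 (SE 0.54) in sgDAMP and -3.55 (SE 0.56) in sgControl. Of 11 receptor and JAK-STAT genes, 4 were higher and 3 lower in sgDAMP, and 5 higher and 3 lower in sgControl, near the shares of all genes. IL10RB had 6 mRNA counts in sgDAMP and 8 in sgControl, and IFNAR2 had 10 and 5. Both entered only through their footprints, so they could hardly come out lower. IFNAR1, a chain of the type I receptor, was higher in footprints, at 3.49 (SE 0.39) in sgDAMP and 3.89 (SE 0.40) in sgControl. TYK2, a kinase on that receptor, was lower, at -3.74 (SE 0.59) in sgDAMP and -4.58 (SE 0.63) in sgControl. Of 10 nucleic acid sensors and adaptors, 2 were higher and 5 lower in each set. TLR3, with 13 mRNA counts in sgDAMP and 12 in sgControl, was another that entered only through its footprints. IRF3 and IRF7, the factors that switch on interferon genes, were both lower, with IRF7 at -5.61 (SE 0.66) in sgDAMP and -6.19 (SE 0.68) in sgControl.

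Of 48 further interferon-stimulated genes tested, 27 were lower and 9 higher in footprints in sgDAMP, and 25 lower and 9 higher in sgControl. Their median log2 value, with genes that lack footprints set at their bound, was -2.02 in sgDAMP and -1.84 in sgControl, against 0.24 and 0.26 over all genes. OASL, an oligoadenylate synthase-like antiviral gene, had 20 footprints beside 54579 mRNA counts in sgDAMP, against 1 footprint beside 58246 mRNA counts in sgControl. Its scaled footprint to mRNA ratio was 0.0013 (0.000796 to 0.00201) in sgDAMP and 5.84e-05 (1.48e-06 to 0.000326) in sgControl. DTX3L, a ubiquitin ligase, went the other way, with footprints higher by 3.27 (SE 0.42) in sgDAMP and 3.48 (SE 0.42) in sgControl.

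**Figure D4:**
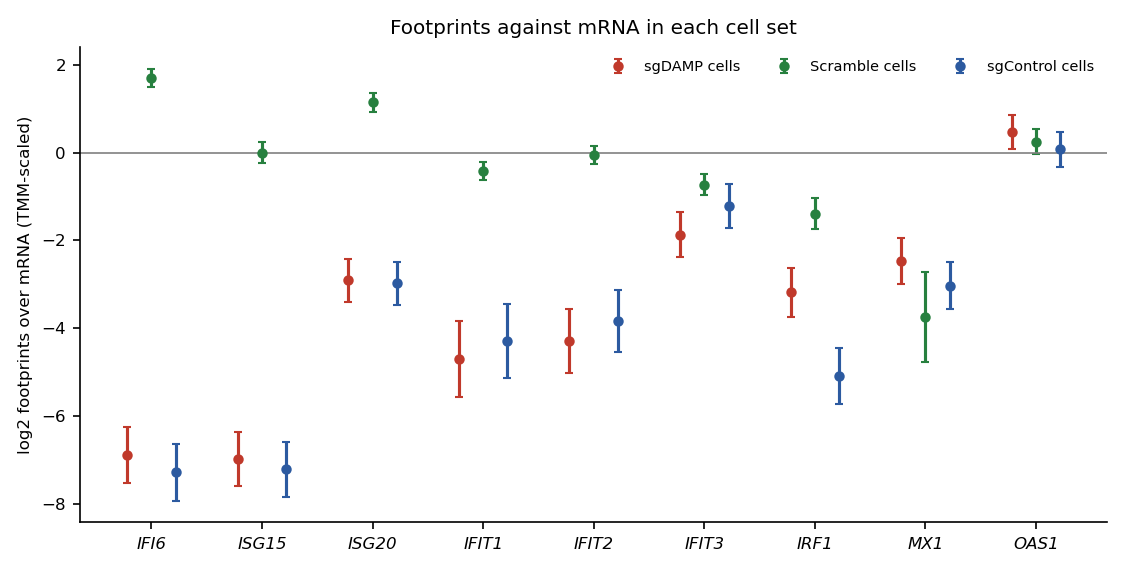
Log2 footprints over mRNA on the TMM scale (y axis) of each gene (x axis) in sgDAMP, Scramble and sgControl cells, with standard errors. IFI6 and ISG15 lie near -7 in sgDAMP and sgControl cells, and at 1.70 and 0.00 in Scramble cells.

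In Scramble cells the members showed no common direction. Of 9 members, 2 were higher and 3 lower in footprints than in mRNA, where 44.5% of 14432 genes passed, 17.1% as higher and 27.4% as lower. IFI6 had 76, 122 and 33 footprints beside 1711, 1624 and 1737 mRNA counts. The third footprint library holds the fewest protein-coding footprints of the 3 and the fewest of IFI6, and the log2 value was 1.70 (SE 0.21, edgeR adjusted p = 2.38e-07). ISG20 had 74, 79 and 15 footprints beside 1735, 1986 and 1669 mRNA counts, with a log2 value of 1.14 (SE 0.21, edgeR adjusted p = 6.58e-05). ISG15 had 224, 242 and 74 footprints beside 11912, 12814 and 12953 mRNA counts, which came to 0.00 (SE 0.25). On total counts in place of TMM, the median of all genes shifted by -2.847, IFI6 stood at -1.08 and ISG20 at -1.63, and higher calls made up 3.55% of all calls in place of 38.5%.

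MX1 was lowest in Scramble footprints. It had 0, 0 and 1 footprints beside 281, 339 and 356 mRNA counts, a scaled ratio of 0.0743 (0.00188 to 0.415). IRF1 stood at -1.39 (SE 0.35, edgeR adjusted p = 0.00199) and IFIT3 at -0.73 (SE 0.23, edgeR adjusted p = 0.0135), but IFIT3 missed the threshold without any 1 of the 3 Scramble mRNA libraries (edgeR adjusted p up to 0.143) and in limma-voom. IFIT1, IFIT2 and OAS1 did not pass, at -0.42 (SE 0.21), -0.06 (SE 0.21) and 0.25 (SE 0.29). Of the interferon genes, IFNL1 had 86, 81 and 34 footprints beside 343, 342 and 333 mRNA counts, a log2 value of 3.83 (SE 0.18, edgeR adjusted p = 5.43e-16). IFNB1 had 7, 7 and 4 footprints and stood at 2.24 (SE 0.47, edgeR adjusted p = 0.000314). Both genes thus had footprints in all 3 Scramble libraries and in none of the 6 others.

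**Figure D5:**
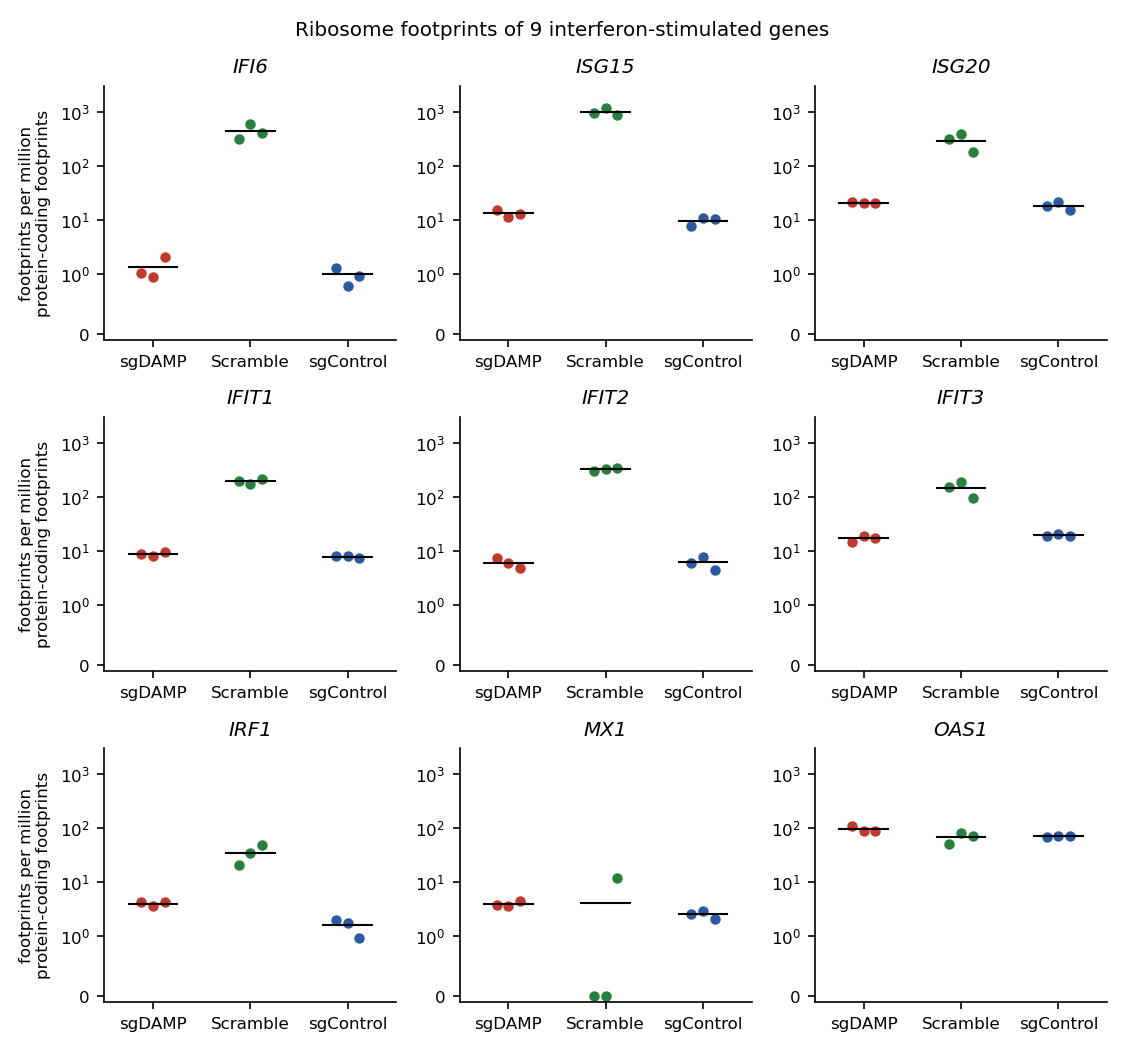
Footprints of each gene in coding CPM (y axis, linear below 1 and logarithmic above), by cell set (x axis), with 1 point per library and a line at the mean of 3. ISG15 stands between 892 and 1198 in Scramble, against 11.6 to 15.2 in sgDAMP and 7.74 to 11 in sgControl, and OAS1 overlaps between Scramble and sgControl on this scale.

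Scaled to protein-coding footprints, the levels of most members were higher in Scramble than in the other sets. IFI6 had 318, 604 and 398 coding CPM in Scramble, against 1.29, 0.807 and 0.977 in sgControl. ISG15 had 938, 1198 and 892 coding CPM in Scramble, against 7.74, 11 and 10.3 in sgControl. IFIT1 had 197, 173 and 217 coding CPM in Scramble, against 8.10, 8.23 and 7.33 in sgControl. In all 3 genes every Scramble library lies above every sgControl library. OAS1 differed from them, with 50.3, 79.2 and 72.3 coding CPM in Scramble, against 68.0, 71.6 and 70.6 in sgControl, where the sets overlap on this scale. The share of all genes whose footprints separate Scramble from sgControl was not computed, in coding CPM or in CPM. Separation is therefore not read as particular to the members.

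ISG20 had 310, 391 and 181 coding CPM in Scramble, against 17.9, 21.3 and 15.3 in sgControl, and IFIT2 297, 332 and 337 in Scramble, against 6.08, 7.91 and 4.56 in sgControl. IFIT3 had 151, 188 and 96.4 coding CPM in Scramble, against 19.2, 20.5 and 18.7 in sgControl. IRF1 had 20.9, 34.7 and 48.2 coding CPM in Scramble, against 2.03, 1.78 and 0.977 in sgControl. On this scale all 4 genes lie higher in every Scramble library, and the lowest Scramble value of ISG20 and of IFIT3 is that of the third library. MX1 was at 0, 0 and 12.1 coding CPM in Scramble, the last from 1 footprint, against 2.58, 2.9 and 2.12 in sgControl. In sgDAMP the members ran from 0.953 coding CPM for IFI6 to 107 coding CPM for OAS1. These levels were not tested by themselves.

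The scale matters here, since protein-coding genes take a smaller share of the Scramble footprints. In CPM over all gene counts, ISG20 footprints stood at 62.5, 76.3 and 11.5 in Scramble, against 14.2, 16.8 and 12.1 in sgControl, and IFIT3 at 30.4, 36.7 and 6.14 in Scramble, against 15.2, 16.2 and 14.8 in sgControl. The third Scramble library then lies below every sgControl library in both genes. OAS1 stood at 10.1, 15.5 and 4.61 CPM in Scramble, against 53.9, 56.6 and 55.7 CPM in sgControl, lower in every library. ISG15, at 189, 234 and 56.8 CPM in Scramble, against 6.14, 8.67 and 8.09 CPM in sgControl, remained higher in every Scramble library, as did IFI6, IFIT1, IFIT2 and IRF1.

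Whether footprints relative to mRNA differed between Scramble and sgControl was tested as an interaction over both assays, a comparison added after the values had been seen. It called 39.1% of 20582 genes, 14.9% higher and 24.2% lower in Scramble, and 6 of 9 members, all higher. The log2 change was 8.45 (SE 0.62) for IFI6, 6.71 (SE 0.51) for ISG15, 3.59 (SE 0.50) for ISG20, 3.36 (SE 0.63) for IFIT1, 3.28 (SE 0.58) for IFIT2 and 3.21 (SE 0.61) for IRF1. The members' median was 3.28, against -1.79 over all genes tested and -0.93 over the protein-coding genes tested. IFIT3 (-0.04, SE 0.47), OAS1 (-0.31, SE 0.42) and MX1 (-1.18, SE 1.33) did not pass. IFI6 and ISG15 passed in all 20 alternatives. With total counts in place of TMM the median of all genes shifted by -1.596, the share of higher calls was 12.8% in place of 38.1%, and ISG20, IFIT1, IFIT2 and IRF1 missed the threshold, at 1.90, 1.62, 1.55 and 1.38. Cell set, library make-up and counting cannot be told apart in this comparison.

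All 5 interferon genes tested in this comparison were called higher in Scramble too, against a background of 0 sgControl footprints. One of them, IFNE, had 2 footprints in Scramble, beside 12 mRNA counts in Scramble and 12 in sgControl. It entered the test only through its Scramble footprints, so its call adds nothing to those of IFNB1, IFNL1, IFNL2 and IFNL3. Among the further interferon-stimulated genes 17 of 49 were higher and 12 lower, against 14.9% and 24.2% of all genes. OASL passed as higher (edgeR adjusted p = 9.66e-11), with a footprint to mRNA ratio of 1.14 (1.01 to 1.29) in Scramble, from 260 footprints beside 16485 mRNA counts, against the 5.84e-05 of sgControl given above. IFI27 was higher by a log2 change of 6.97 (SE 0.68). DTX3L was lower, at -5.54 (SE 0.49).

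The mRNA of Scramble and sgControl cells also differed, in the members as in most genes. Of 16360 genes tested 79.6% passed, 46.1% higher and 33.5% lower in Scramble, and of the members 2 were higher and 5 lower. This comparison shares its sgControl libraries with that of the knockout. IFIT3 had 271, 302 and 261 CPM in Scramble, against 38.9, 50.4 and 69.8 CPM in sgControl, a log2 change of 1.57 (SE 0.19, edgeR adjusted p = 4.74e-05). IFIT2 had 363, 374 and 336 CPM in Scramble, against 55.3, 84.4 and 178 CPM in sgControl, a log2 change of 0.96 (SE 0.32, edgeR adjusted p = 0.0196). Both genes lie higher in every Scramble library than in any sgControl library. ISG15 had 1023, 1031 and 1193 CPM in Scramble, against 1514, 1823 and 1714 CPM in sgControl, a log2 change of -1.47 (SE 0.16, edgeR adjusted p = 2.51e-05).

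OAS1, IFI6, ISG20 and MX1 were also lower in Scramble, at -1.22 (SE 0.15), -1.17 (SE 0.17), -0.95 (SE 0.15) and -0.61 (SE 0.22). IFIT1 (-0.20, SE 0.35) and IRF1 (-0.36, SE 0.20) did not pass. In CPM, which total counts scale, IFI6 averaged 146 ± 14.7 in Scramble and 183 ± 12.6 in sgControl, and ISG20 154 ± 5.44 in Scramble and 166 ± 10.4 in sgControl (SD, n = 3 each). OAS1 averaged 59.4 ± 4.43 CPM in Scramble and 77.8 ± 6.02 in sgControl, and MX1 28.1 ± 4.38 in Scramble and 23.9 ± 3.52 in sgControl. IFIT1 averaged 278 ± 11.7 CPM in Scramble and 184 ± 123 in sgControl, and IRF1 87.3 ± 4.39 in Scramble and 62.1 ± 11.3 in sgControl. On this scale every Scramble library lies above every library of sgDAMP and sgControl for IFIT2, IFIT3 and IRF1 and below them for ISG15, and Scramble overlaps sgDAMP for the other 5. The share of all genes that separate so in CPM was not computed. On the TMM scale 6 of the 9 members did not overlap between Scramble and sgControl, against 82.6% of all genes. With total counts the median of all genes shifted by 0.826 and the share of higher calls was 75.4% in place of 57.9%. Under that scaling IFI6 and ISG20 missed the threshold, while IFIT1 stood at 0.60, MX1 at 0.23 and IRF1 at 0.49, and IRF1 then passed as higher. IFIT2 missed the threshold without sgControl library 2, and MX1 without that library, without Scramble library 1 or 2, and under 2 other settings. IFIT3, higher, and ISG15, lower, were the members that passed in all 15 alternatives. The IFIT spans overlap LIPA, among them those of IFIT2 and IFIT3, the members called higher. The shares of ambiguous reads and of reads in no feature differ between the sets as given above. The part of the overlap and of these shares in the values was not tested.

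Upstream of the members, all 4 interferon genes tested were lower in Scramble mRNA. IFNL1 had 29.5, 27.5 and 30.7 CPM in Scramble, against 479, 455 and 428 CPM in sgControl, a log2 change of -4.79 (SE 0.18, edgeR adjusted p = 1.81e-07). IFNB1 was lower by a log2 change of -4.38 (SE 0.38, edgeR adjusted p = 6.25e-06), and no Scramble library reached the lowest sgControl library. Of 10 receptor and JAK-STAT genes 6 were higher and 2 lower, against 46.1% and 33.5% of all genes, with IFNAR1 at 2.26 (SE 0.22). Of 49 further interferon-stimulated genes 23 were higher and 14 lower, near the 46.1% and 33.5% of all genes, with HERC5, an enzyme that attaches ISG15 to proteins, at 2.09 (SE 0.20) and OASL at -2.08 (SE 0.14).

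In the knockout, none of these surrounding lists held a gene that passed in mRNA, with 4 interferon, 9 receptor and JAK-STAT, 9 sensor and adaptor, 4 IRF, 8 negative regulator and 47 further interferon-stimulated genes tested in edgeR. IFNL1 had 501, 349 and 255 CPM in sgDAMP, against 479, 455 and 428 CPM in sgControl, a log2 change of -0.47 (SE 0.28, edgeR adjusted p = 0.862). In CPM the largest sgDAMP library exceeds all sgControl libraries while the other 2 lie below them. After TMM scaling the values were 439, 336 and 262 in sgDAMP, against 528, 485 and 419.9 in sgControl. The largest sgDAMP library then lies within the sgControl range. In footprints, 5 of 34 further interferon-stimulated genes kept lay past 2-fold higher in sgDAMP and 0 lower, against 10.2% of all genes on the higher side. They were PARP12 at 2.46 (74 against 29 footprints), TRIM22 at 2.17 (72 against 32), SP110 at 2.13 (64 against 29), IFI27 at 3.64 (34 against 9) and OASL at 19.3 (20 against 1, interval 3.08 to 799). TRIM21, a negative regulator, lay at 2.09 (39 against 18).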

How the data were processed

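The authors deposited raw counts, whole numbers of reads per gene for 61487 genes in each of 18 libraries, followed by 5 closing lines on reads in no gene. Trimmomatic 0.30, HISAT2 2.1.0, SAMtools 1.10, HTSeq 0.11.2, edgeR and the build GRCh38 are named in the submitters' processing notes. No source used here gives the annotation release or the use of strand, so IFIT1, IFIT2 and IFIT3, whose spans overlap LIPA, are uncertain.

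Samples were grouped by their labels. Low counts were removed by filterByExpr (minimum count 10). Where footprints were set against mRNA within a cell set, in sgDAMP, sgControl or Scramble cells, TMM scaling ran over both assays together. In the other comparisons it ran within each assay. Changes in both directions were tested by edgeR 4.0.16 (quasi-likelihood) under R 4.3.3. The threshold was 0.05 after Benjamini-Hochberg adjustment over all genes. SEs are the log2 change divided by the root of the F statistic. Footprints of sgDAMP and of sgControl entered as 1 summed sample each. No molecular identifiers are named in the labels, and intervals (95%) and the floor of 3 counts cover counting error only. Alternatives used DESeq2 1.42.0, limma-voom 3.58.1, other scalings, filters and left-out libraries. Scripts were tested on simulated data. Promoters and names came from RefSeq tables; gene lengths and proteins were not used here, so levels are compared within a gene.

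The members and all gene lists were chosen with earlier results of these data known. Named were all members, from each list up to 4 called genes with the smallest p or else the 2 with the highest mean count, DSP-AS1, and the 5 genes most alike; genes past 2-fold in footprints were named after their values were seen. Libraries with the same replicate number did not consistently deviate together between sets (correlation -0.578 to 0.49 in mRNA), so no pairing was used.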

Additional observations from a re-analysis of the deposited data

Results flagged for a closer look

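Between Scramble and sgControl cells, 6 members differed in footprints relative to mRNA by a test of the difference itself, the interaction of assay and cell set in edgeR. The log2 change, Scramble over sgControl, was 8.45 for IFI6, 6.71 for ISG15, 3.59 for ISG20, 3.36 for IFIT1, 3.28 for IFIT2 and 3.21 for IRF1, with edgeR adjusted p-values from 7.42e-09 to 0.000262. Of all 20582 genes tested 39.1% passed. With total counts in place of TMM, ISG20, IFIT1, IFIT2 and IRF1 missed the threshold, at 1.90, 1.62, 1.55 and 1.38, and IFI6 and ISG15 still passed. The comparison was chosen after the values had been seen. The 2 sets also differ in depth and in the share of footprints on protein-coding genes, 6.37% to 20.2% in Scramble against 78.9% to 79.3% in sgControl, and the part of these in the differences was not tested.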

How the results depend on the processing

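In the mRNA of sgDAMP against sgControl, 0 genes passed as reported, 14 without a filter, 21 in DESeq2, 1 with all 9 mRNA libraries, and 0 to 6 with 1 library left out (6 without sgControl mRNA library 3). No member passed in any of these. ISG15 turned to 0.02 with upper-quartile factors, 0.04 with total counts, 0.05 with protein-coding totals and 0.09 without sgDAMP library 1. With a library left out, IFIT1 ran from -0.29 to 0.84, IFIT2 from -0.18 to 0.60 and IFIT3 from -0.03 to 0.38. The replicate numbers gave no consistent pairing of the libraries, and with a replicate block 0 genes and 0 members passed. For footprints relative to mRNA, 50 genes passed, 450 with each footprint library as a sample and 215 with a replicate block as well, and 1 member, IRF1, in both; left-out libraries gave 34 to 70 genes and 0 members, with IFIT1 from -0.95 to 0.17 and IFI6 from -0.02 to 0.66. Past 2-fold in footprints lay 2931 genes, 9259 without a filter, 1476 with 10 counts in every library, and 5591 past 1.5-fold. The edgeR test over the libraries called 6966 genes and 3 members, and 6970 and 3 with a replicate block; left-out libraries gave 2625 to 2775 genes and 0 to 1 members.

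In Scramble footprints against mRNA, total counts gave 13531 genes and 8 members, against 6420 and 5 as reported, with IFI6 at -1.08, ISG20 at -1.63 and OAS1 at -2.61. The filter of 10 counts in every library left 1210 genes called. ISG15 turned to 0.11 with upper-quartile factors and 0.02 in limma-voom, IFIT2 to 0.05 with upper-quartile factors. With a library left out ISG15 ran from -0.29 to 0.27, IFIT2 from -0.23 to 0.14 and OAS1 from -0.08 to 0.45, with 4743 to 6530 genes and 4 to 5 members. The replicate block gave 4702 genes and 5 members. That filter left 6898 genes in sgControl cells and 6699 in sgDAMP cells, against 13491 and 13138 as reported. OAS1 in sgControl cells turned to -0.36 with upper-quartile factors, -0.49 with total counts, -0.21 with protein-coding totals, -0.20 with that filter, -0.14 with each footprint library as a sample, -0.14 with the replicate block and ran from -0.02 to 0.13 with a library left out. Left-out libraries gave 7 to 8 members in sgControl cells and 8 in sgDAMP cells.

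In the mRNA of Scramble against sgControl, protein-coding totals left 4 members called in place of 7, and left-out libraries 5 to 8. IFIT1, IRF1 and MX1 turned to 0.60, 0.49 and 0.23 with total counts and to 0.65, 0.55 and 0.29 with protein-coding totals, and IFIT1 ran from -0.53 to 0.34 with a library left out. The replicate block gave 12379 genes in place of 13020, and 6 members. In the interaction of Scramble against sgControl, the filter of 10 counts in every library left 1235 genes in place of 8041. IFIT3 turned to 0.01 with DESeq2 size factors, 1.12 with upper-quartile factors, 0.51 with protein-coding totals, 0.17 with each footprint library as a sample, 0.17 with the replicate block, and ran from -0.17 to 0.17 with a library left out. OAS1 turned to 0.85 with upper-quartile factors and 0.23 with protein-coding totals. Upper-quartile factors shifted the median of all genes by 0.97 and put higher calls at 56.6% in place of 38.1%. Left-out libraries gave 6 members. Where no cause is given, the cause was not tested. With the replicate block IRF1 passed in footprints relative to mRNA of sgDAMP against sgControl, at 1.96, and MX1 missed the threshold in the mRNA of Scramble against sgControl, at -0.60; in the edgeR tests it changed no other call of a member. Few footprints limit IFI6 in sgDAMP and sgControl cells and MX1 in Scramble cells.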

Other observations

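Some genes of the pathway had many footprints and little mRNA in the CRISPR cell sets. TBK1, a kinase that activates IRF3, had 2352 footprints beside 283 mRNA counts in sgDAMP and 2400 beside 131 in sgControl, a scaled ratio of 29.5 (26.1 to 33.5) in sgDAMP and 62.4 (52.3 to 74.9) in sgControl. In Scramble its ratio was 1.29 (0.776 to 2.03). JAK2, a kinase on cytokine receptors, had a ratio of 13.2 in sgDAMP and 16.6 in sgControl, and 1.45 in Scramble. TLR3, a sensor of double-stranded RNA, had 99 footprints beside 13 mRNA counts in sgDAMP and 71 beside 12 in sgControl. IL10RB, a chain of the type III interferon receptor, had 74 footprints beside 6 mRNA counts in sgDAMP and 68 beside 8 in sgControl. With so few mRNA counts, TLR3 and IL10RB entered the tests through their footprints alone. PIAS1, a regulator of STAT proteins, had a ratio of 6.82 in sgDAMP and 10.6 in sgControl.

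In Scramble cells 12 of 48 further interferon-stimulated genes were higher in footprints than in mRNA and 11 lower, against 17.1% and 27.4% of all genes. IFITM3, which blocks entry of viruses, stood at 4.17 (SE 0.34), LGALS3BP, a secreted glycoprotein, at 2.52 (SE 0.27) and DDX60, a helicase, at 1.42 (SE 0.20). HELZ2 stood at -3.30 (SE 0.56), with 4 footprints beside 2859 mRNA counts. IFITM3 had 3 footprints beside 391 mRNA counts in sgDAMP and 0 beside 378 in sgControl. IFNAR2, a chain of the type I receptor, had 635 mRNA counts in Scramble, against 5 in sgControl, a log2 change of 6.64 (SE 0.48, edgeR adjusted p = 2.3e-06).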
